A study of Mus musculus with 6 samples.

Results

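The genes described here are 8 transcription regulators that act in developing midbrain GABA neurons, the cells that release the inhibitory transmitter GABA. They are the zinc finger factors Gata2 and Gata3, the bHLH factors Tal1 and Tal2, the HMG-box factor Sox14, the GATA cofactors Zfpm1 and Zfpm2, and the homeodomain factor Six3. All 8 symbols were found among the 32531 gene entries of each library, and 7 of them, all but Tal2, were among the 17197 genes that passed the filter on low counts. Those 7 exceeded the filter's level of 0.243 CPM (read counts scaled to library size) in all 6 libraries, so none of them entered through a single group.

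The libraries came from adult mice of the line Lhx5-TRAP DT154, in which regulatory sequences of the LIM homeodomain gene Lhx5 drive the ribosomal protein Rpl10a fused to EGFP. In translating ribosome affinity purification (TRAP), antibodies against EGFP pull tagged polysomes and their RNA out of a tissue homogenate. The midbrain was taken from untreated mice that all belonged to this line, and 3 libraries were made from immunopurified RNA (IP) and 3 from RNA titled input, which another label calls unbound. The labels do not say which cells carry the tag, how many animals gave a sample, or whether replicates were separate animals, so each p-value reflects only how far these libraries scatter, and that scatter may be technical. Gene totals were 38058239 to 45841499 counts per library. Lhx5, the gene whose sequences drive the tag, had 46.8, 56.0 and 49.1 CPM, with library sizes scaled by TMM, in IP replicates 1, 2 and 3, against 3.92, 3.80 and 2.20 CPM in the input replicates, and Rpl10a had 7.0 to 7.04 CPM in IP and 6.07 to 8.96 CPM in input. Reads without a unique alignment were left uncounted, at 43.8% to 44.5% of a library's total in IP and 31.8% to 33.0% in input. Their part in the level of Rpl10a was not tested.

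GABA neurons of the midbrain arise from progenitors that express Helt, and as these cells leave the cell cycle they switch on Gata2, Gata3, Tal1 and Tal2. Gata2 and Tal2 are needed for precursors in the mouse midbrain to become GABAergic rather than glutamatergic. TAL proteins bind DNA with E-protein partners and are joined to GATA factors by LIM-only and LIM-domain-binding proteins, in a complex best known from blood cells, while the FOG proteins encoded by Zfpm1 and Zfpm2 bind a GATA zinc finger. Gata2 and Gata3 also act in serotonin neurons, Tal1 and Gata2 in blood and endothelial cells, and Six3 in the forebrain, the eye and striatal neurons.

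The stretches before the starts of Tal1 and Sox14 are shown because these genes shared a pattern over the libraries and because each stretch holds the letters of a GATA site. Each is the 250 bases before a RefSeq start on GRCm38.p6, read 5′ to 3′ on the gene's strand. The letters AGATAA were searched, then TGATAA, also AGATAG, and last TGATAG, each on both strands, and capitals mark a match.
Tal1, chr4:115056176-115056425, plus strand: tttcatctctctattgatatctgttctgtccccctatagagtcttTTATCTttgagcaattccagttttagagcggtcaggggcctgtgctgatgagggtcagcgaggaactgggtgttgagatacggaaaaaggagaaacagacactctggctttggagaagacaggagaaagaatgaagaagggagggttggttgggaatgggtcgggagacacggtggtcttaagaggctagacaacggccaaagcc
Sox14, chr9:99876171-99876420, minus strand: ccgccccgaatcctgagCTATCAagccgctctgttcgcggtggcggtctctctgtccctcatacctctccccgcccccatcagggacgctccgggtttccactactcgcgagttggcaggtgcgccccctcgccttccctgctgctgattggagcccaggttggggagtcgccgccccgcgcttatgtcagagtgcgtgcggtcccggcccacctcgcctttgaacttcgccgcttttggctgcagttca
The match begins 205 bases before the start in Tal1 and 233 bases before it in Sox14. The table of promoters held 7 of the 8 genes, all but Zfpm2, with 9 windows in all, and these were the only 2 windows with a match. Of all 32851 windows of this length, 26.5% held such letters. The E-box CAGATG, searched on both strands, was in none of the 9 windows and in 14.4% of all windows. Another E-box, CAGCTG, was likewise in none of the 9 and in 13.0% of all. Such a match describes letters only.

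Markers of tissue were read first, because they set a library apart. All 14 genes on a list of midbrain markers, among them the dopamine transporter gene Slc6a3 and the patterning genes En1, En2 and Pax7, had a count in every library. Their levels summed to 109 to 113 CPM in IP, against 197, 180 and 57.2 CPM in input replicates 1, 2 and 3. The sums hide calls in both directions. By the test given below, 3 of the 12 tested were higher in IP, 4 lower and 5 did not pass. Among all genes tested, 26.0% were higher and 27.9% lower. Foxa1, Foxa2 and Pou4f1 were higher (log2 fold changes 2.57, 2.97 and 2.02). Th, Slc6a3, Otx2 and Lmx1a were lower (-2.05, -3.05, -0.94 and -2.73). The even IP sums hold an uneven Tfap2b, at 6.90, 51.0 and 6.44 CPM in IP replicates 1, 2 and 3. En1 (3.56 CPM), Foxa1 (8.45 CPM) and Pou4f1 (13.7 CPM) were lower in IP replicate 2 than in the other IP libraries, though Pax7 was not. The sum was lowest in input replicate 3, although single genes of the list differed: Otx2, a forebrain and midbrain factor, had 22.7, 18.8 and 24.5 CPM in the inputs, and Lmx1a, of dopamine neurons, had 2.79, 2.06 and 3.55 CPM, both highest in input replicate 3. That library was high in RNA of the striatum, a forebrain region, with 1511 CPM over 10 striatal genes against 367 and 229 CPM in input replicates 1 and 2 and 180 to 196 CPM in IP. Forebrain GABA factors, among them Meis2, Lhx6 and the Dlx genes, summed to 55.4 to 109 CPM in IP. In the inputs in the same order they summed to 148, 126 and 355 CPM. Meis2 made up most of each sum, at 52.96, 34.3 and 89.8 CPM in IP and 121, 100 and 212 CPM in input. Lhx6 was lower in every IP library than in every input. Dlx1 was not, with 7.07, 5.13 and 4.17 CPM in IP against 2.6, 3.37 and 18.9 CPM in input. For Dlx2, Dlx5 and Dlx6 the groups overlapped too, with input replicate 3 the highest. IP replicate 2 held 1727 CPM over 9 Purkinje cell and cerebellar genes, against 540 and 534 CPM in IP replicates 1 and 3 and 398 to 497 CPM in input. Results on the 8 factors are therefore given with and without input replicate 3, and without both it and IP replicate 2. Both libraries were set apart by values of these same data. An adjusted p without them thus reflects only how closely the libraries kept agree.

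**Figure D1:**
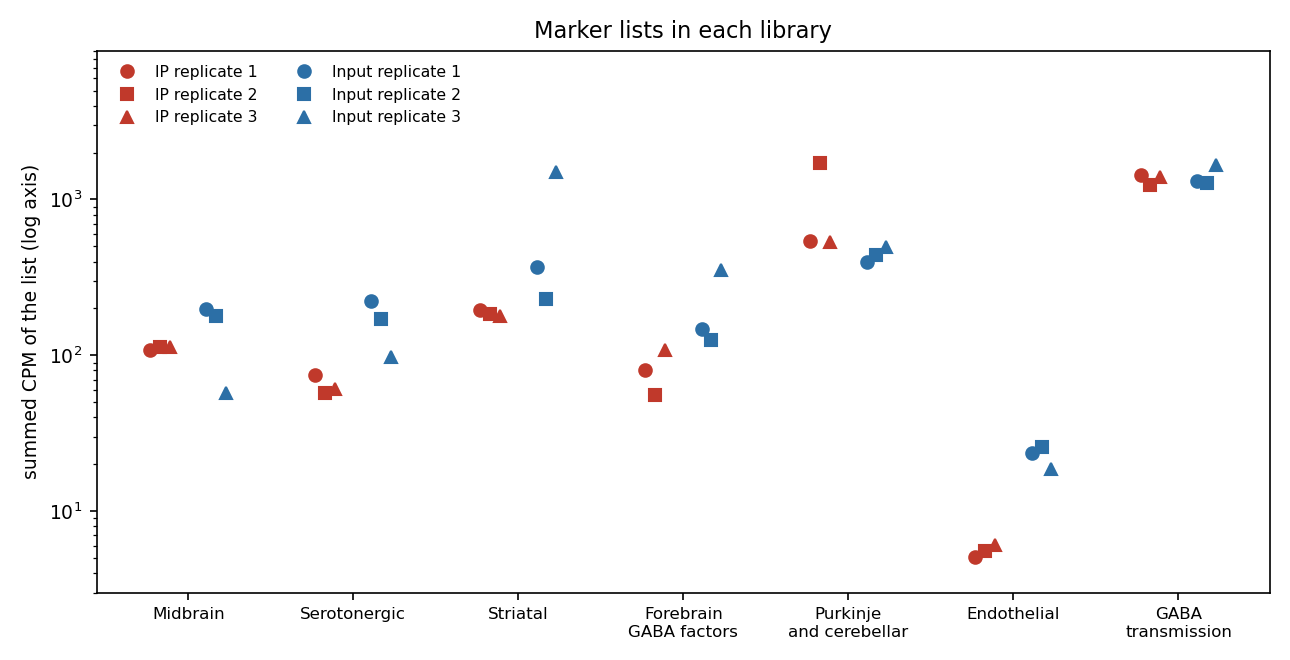
Summed CPM of 7 marker lists (log axis) in each library, IP in red and input in blue, with a shape for each replicate number. Input replicate 3 lies at 57.2 CPM for midbrain genes and 1511 CPM for striatal genes, apart from the other inputs, and IP replicate 2 lies at 1727 CPM for Purkinje and cerebellar genes.

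None of the 7 tested factors was higher in IP, and 3 of them, Gata2, Tal1 and Six3, were lower. Among all 17197 genes 53.9% were called, 26.0% higher and 27.9% lower, at an adjusted p under 0.05 (quasi-likelihood test of edgeR, p adjusted by Benjamini-Hochberg, here and throughout). The median log2 fold change of the 7 factors was -1.99, beside -0.01 for all genes tested. Only Six3 was shown to be lower by more than 2-fold, as 12.9% of all genes were, and no factor was higher by more than 2-fold, as 2.25% were. With 7 genes tested, the share of 3 is not far from the background of 27.9%. Without input replicate 3, 6 of 8 tested factors were lower, where 25.2% of all genes were, and without both it and IP replicate 2, 5 of 7 were, beside 24.6% of all genes. Leaving out any other library gave 1 or 2 lower factors.

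**Figure D2:**
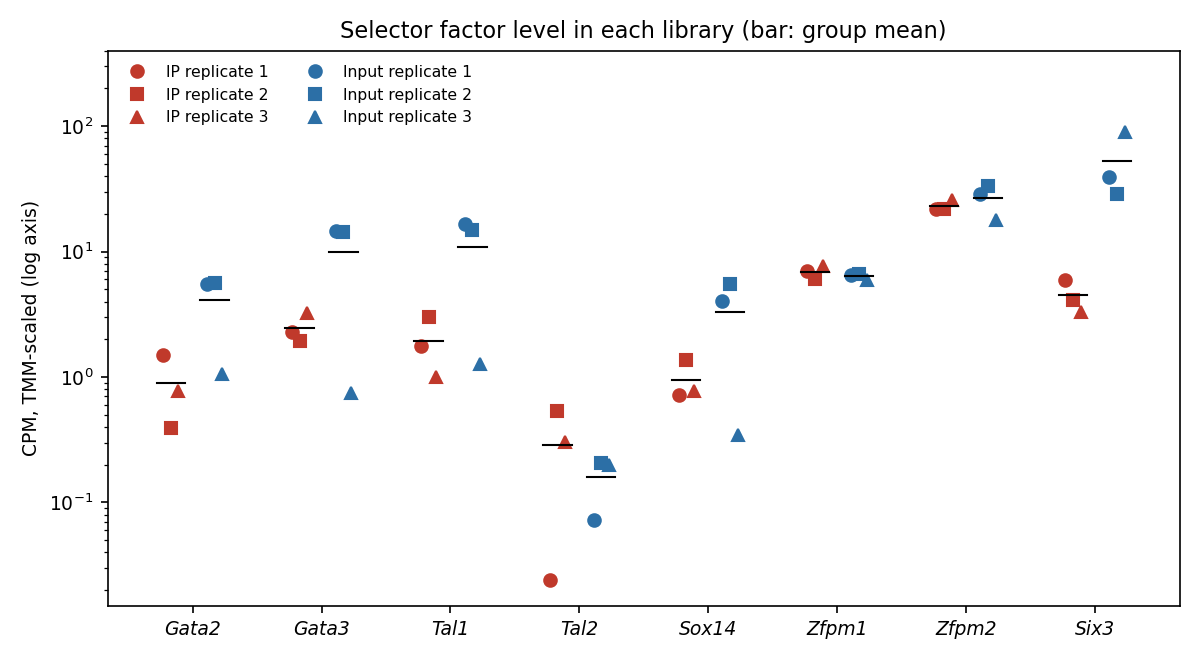
Level of the 8 factors in CPM (log axis) in each library, IP in red left of input in blue, with a shape for each replicate number and a black bar for the group mean. Gata2, Gata3, Tal1 and Sox14 lie high in input replicates 1 and 2 and low in input replicate 3, and Six3 is highest in input replicate 3.

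Gata2, the factor that starts GABAergic differentiation in the midbrain, had 1.5, 0.391 and 0.770 CPM in IP replicates 1, 2 and 3, against 5.53, 5.66 and 1.06 CPM in the input replicates. Input replicates 1 and 2 stood far above the rest, and input replicate 3 lay within the range of the IP libraries. The log2 fold change was -2.20 (SE 0.69, adjusted p 0.0250). It was -2.68 (SE 0.50) without input replicate 3, and -2.34 without both that library and IP replicate 2. The call was lost when 1 library was left out in 4 cases, at -1.88 for IP replicate 2, -2.09 for IP replicate 3, -1.91 for the first input and -1.88 for the second. In bulk RNA, fewer cells that make an RNA and less of it per cell cannot be told apart.

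Gata3, which follows Gata2 in the same lineage and marks mature GABA neurons of the ventral midbrain, had 2.27, 1.95 and 3.22 CPM in IP, against 14.6, 14.4 and 0.740 CPM in the input replicates in order. Here input replicate 3 was below every IP library. The log2 fold change of -1.99 did not pass over all 6 libraries (SE 0.82, adjusted p 0.0688), with a 95% interval before adjustment from -3.87 to -0.12. Without input replicate 3 the log2 fold change was -2.57 (SE 0.23, adjusted p 0.000223), and without IP replicate 2 as well it was -2.45. In the annotation, 3.90% of the exon bases of Gata3 are shared with the antisense gene Gm13256 and 1.94% with 9230102O04Rik, and strand is not stated for the counting.

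Tal1, a bHLH factor of midbrain GABA neurons and of blood and vessels, had 1.77, 3.0 and 1.0 CPM in IP, against 16.7, 14.8 and 1.26 CPM in the input replicates. As for Gata2 and Gata3, input replicates 1 and 2 were high and input replicate 3 was low, within the range of the IP libraries. Its log2 fold change was -2.51 (SE 0.81, adjusted p 0.0280). It stood at -3.05 (SE 0.41) without input replicate 3, and at -3.56 (SE 0.33) without both that library and IP replicate 2. Leaving out 1 of the other libraries ended the call each time, at -2.44, -3.02 and -2.19 for the IP libraries in order and at -2.06 and -2.22 for the first and second input.

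Tal2, the relative of Tal1 that the mouse midbrain needs during development, was barely present. It had 1, 22 and 13 counts in IP, against 3, 9 and 8 counts in the input replicates. With 3 counts as the floor for a library, IP replicate 1 and input replicate 1 were at or under it, and the groups overlapped. Only 2 libraries were above the level of the low-count filter, so Tal2 was not tested. With the filter removed its log2 fold change was 0.86 (SE 1.0, adjusted p 0.498), and such depth cannot show a difference of that size.

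Sox14, a repressor of the SoxB2 group found in GABA precursors of midbrain and thalamus, had 0.717, 1.37 and 0.770 CPM in IP, against 4.04, 5.55 and 0.345 CPM in the input replicates. As for Gata3, input replicate 3 lay below all IP libraries. The log2 fold change of -1.80 did not pass (SE 0.80, adjusted p 0.0881). Without input replicate 3 the log2 fold change was -2.35 (SE 0.40, adjusted p 0.00284), and without IP replicate 2 as well it was -2.73.

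Neither FOG cofactor passed the test over all 6 libraries. Zfpm1, encoding FOG1, had 7.05, 6.0 and 7.72 CPM in IP, against 6.54, 6.62 and 5.97 CPM in the input replicates. The groups overlapped, at a log2 fold change of 0.12 with an SE of 0.19 and an adjusted p of 0.615, or 0.05 without input replicate 3 and 0.12 without IP replicate 2 as well. The 95% interval ran from -0.31 to 0.54, so a change of 2-fold in either direction lies outside it, and the sign turned to -0.022 with library totals alone and to -0.034 with upper-quartile scaling. Zfpm2, encoding FOG2, had 21.7, 22.0 and 25.8 CPM in IP, against 28.9, 33.6 and 17.9 CPM in the input replicates. That is -0.21 on the log2 scale, with an SE of 0.22 and a 95% interval of -0.72 to 0.29 (adjusted p 0.449). The inputs of Zfpm2 lay on both sides of the IP libraries, with input replicate 3 the lowest, and the value without that library was -0.46 (SE 0.14, adjusted p 0.0285), which did not pass without IP replicate 2 as well (-0.45).

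Six3, a homeodomain repressor, showed the largest difference of the 7 tested factors over all 6 libraries, though Tal1 was further from 0 without input replicate 3 and without IP replicate 2 as well. It had 5.97, 4.13 and 3.31 CPM in IP, against 39.6, 29.0 and 90.2 CPM in the input replicates. Every IP library was below every input library, which held for 32.8% of all genes tested and for no other of the factors, while no factor had all IP libraries above all inputs, as 30.7% of genes did. Its log2 fold change was -3.57 (SE 0.44, adjusted p 0.000341), and the adjusted p of a change over 2-fold was 0.00177. Input replicate 3, the library high in striatal genes, had the most Six3, and without it the log2 fold change was -2.96 (SE 0.27, adjusted p 0.00023), or -2.93 without IP replicate 2 as well. Six3os1, the antisense neighbour, had 0.693, 0.415 and 0.956 CPM in IP, against 7.40, 6.51 and 15.3 CPM in the input replicates. It shares 1.95% of the exon bases of Six3, Gm28528 shares 3.08%, and reads of the overlapping strands cannot be told apart here. Reads that touched several genes were left uncounted and made up 1.59% to 1.68% of a library's total in IP and 8.03% to 10.9% in input.

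**Figure D3:**
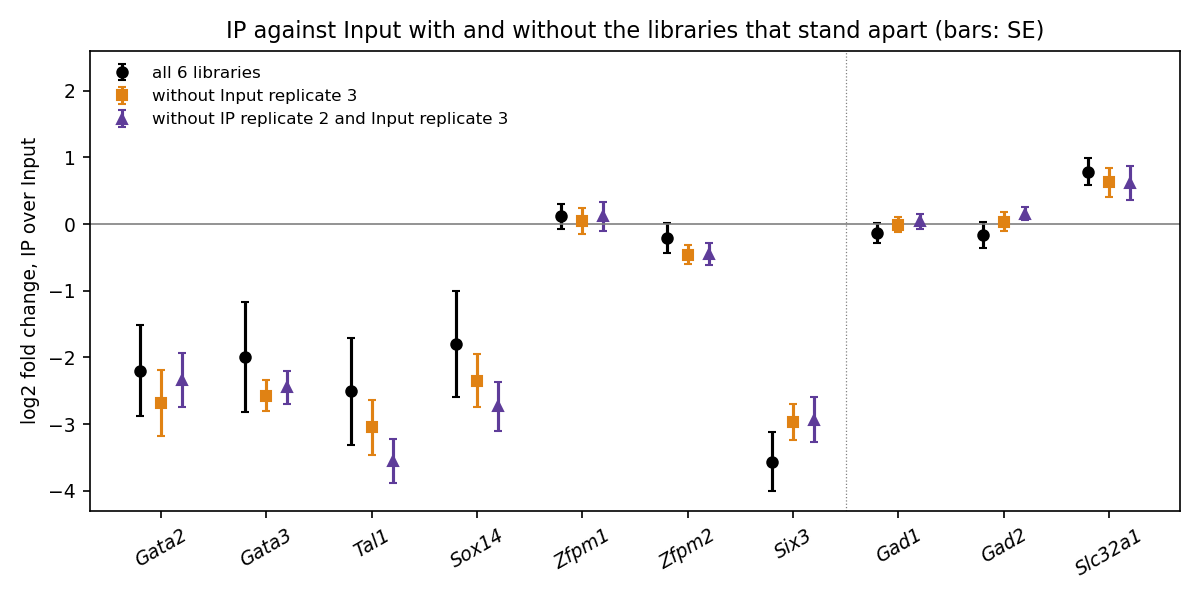
Log2 fold change of IP over input for the 7 tested factors and, right of the dotted line, 3 genes of GABA synthesis and transport, with all libraries (black), without input replicate 3 (orange) and without IP replicate 2 and input replicate 3 (purple); bars are SEs. The values of Gata2, Gata3, Tal1, Sox14 and Six3 stay below 0 in all 3 fits, while those of Gad1 and Gad2 lie close to 0.

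On GRCm38, with the GENCODE M21 annotation, Gata2 lies at chr6:88193891-88207032, Tal1 at chr4:115056426-115071755, Tal2 at chr4:53779705-53788712, Zfpm1 at chr8:122282141-122337251, Zfpm2 at chr15:40655035-41104592 and Six3 at chr17:85613608-85629302, all on the plus strand. Gata3 at chr2:9857078-9890034 and Sox14 at chr9:99874106-99876170 are on the minus strand. Levels of different genes were compared as CPM per kb of merged exons. In IP the order was Zfpm2 at 2.43 ± 0.243, Zfpm1 at 1.98 ± 0.246, Six3 at 0.821 ± 0.250, Gata3 at 0.623 ± 0.165, Sox14 at 0.461 ± 0.175, Tal1 at 0.439 ± 0.230, Gata2 at 0.165 ± 0.105 and Tal2 at 0.0969 ± 0.0865 CPM per kb (SD, n = 3). Zfpm2 lay above Zfpm1, and Zfpm1 above Six3, in all IP libraries, and each neighbouring pair from Six3 downward overlapped. In input the order was Six3 at 9.72 ± 6.01, Zfpm2 at 2.81 ± 0.849, Tal1 at 2.50 ± 1.93, Gata3 at 2.49 ± 1.99, Zfpm1 at 1.82 ± 0.101, Sox14 at 1.60 ± 1.30, Gata2 at 0.756 ± 0.485 and Tal2 at 0.0534 ± 0.0253 CPM per kb (SD, n = 3). Six3 lay above Zfpm2, and Gata2 above Tal2, in all input libraries, and the neighbours between them overlapped. The 2 FOG genes thus led the order in IP, where Six3 led it in input.

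Ratios of close relatives within a library need no scaling between libraries. The log2 ratio of Gata2 to Gata3 counts was -0.59, -2.29 and -2.05 in IP, against -1.40, -1.34 and 0.51 in the input replicates, and the groups overlapped (difference of means -0.90, two-sided exact permutation p = 0.4). The log2 ratio of Tal1 to Tal2 was 5.63, 2.46 and 1.69 in IP and 7.64, 6.09 and 2.6 in input (difference -2.18, exact permutation p = 0.2), with Tal2 near the floor. For Zfpm1 to Zfpm2 it was -1.62, -1.87 and -1.74 in IP and -2.14, -2.34 and -1.58 in input (difference 0.28, exact permutation p = 0.4). None of these 3 ratios was shown to differ, and 3 libraries against 3 cannot give a p below 0.1.

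None of the genes that make and move GABA was called lower. Of 5 such genes tested 1 was higher, 0 lower and 4 did not pass, with a median log2 fold change of 0.02. Over all genes tested, 26.0% were higher and 27.9% lower. Slc32a1, the vesicular GABA transporter gene, had 111, 87.3 and 67.9 CPM in IP, against 61.4, 51.8 and 41.8 CPM in the input replicates, a rise of 0.78 (SE 0.20, adjusted p 0.0112) that no longer passed without both IP replicate 2 and input replicate 3 (0.62, adjusted p 0.091). The GABA synthesis genes Gad1 and Gad2 did not pass, at -0.13 for Gad1 (SE 0.14) and -0.16 for Gad2 (SE 0.20), with Gad2 at 858, 656 and 959 CPM in IP and 804, 769 and 1189 CPM in input. Abat, the gene of GABA breakdown, stood at 0.05 (SE 0.12), and its sign turned negative when libraries were scaled by upper quartile or by totals, among other settings. Without input replicate 3, Gad2 stood at 0.037.

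Counts of the factors were also set against counts of these genes. Per 1000 counts of Slc32a1, Gata3 had 20.4, 22.4 and 47.4 counts in IP, against 237, 277 and 17.7 in the input replicates. Tal1 had 15.9, 34.4 and 14.8 in IP, against 273, 286 and 30.1, and Six3 had 53.6, 47.2 and 48.8 in IP, against 645, 560 and 2158 in the input replicates. Relative to Slc32a1, Gata3 and Tal1 were thus more abundant in input replicates 1 and 2 than in any IP library, a ratio that needs no scaling between libraries. Per 1000 counts of Gad2, Gata3 had 2.65, 2.98 and 3.35 in IP, against 18.1, 18.7 and 0.622 in the input replicates. Zfpm1 had 8.21, 9.16 and 8.05 per 1000 counts of Gad2 in IP, against 8.13, 8.61 and 5.02, so that 2 inputs lay within the range of IP. Tal2, near its floor, had 0.0278, 0.819 and 0.316 per 1000 counts of Gad2 in IP, against 0.0897, 0.268 and 0.166 in the input replicates, and Zfpm2 had 25.3, 33.5 and 26.9 in IP, against 36.0, 43.7 and 15. Relative to Gad2 the groups overlapped for both. Per 1000 counts of Slc32a1, however, Zfpm2 had 195, 252 and 380 in IP, against 471, 649 and 427 in the input replicates, without overlap. The reading for Zfpm2 thus depended on the gene chosen.

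**Figure D4:**
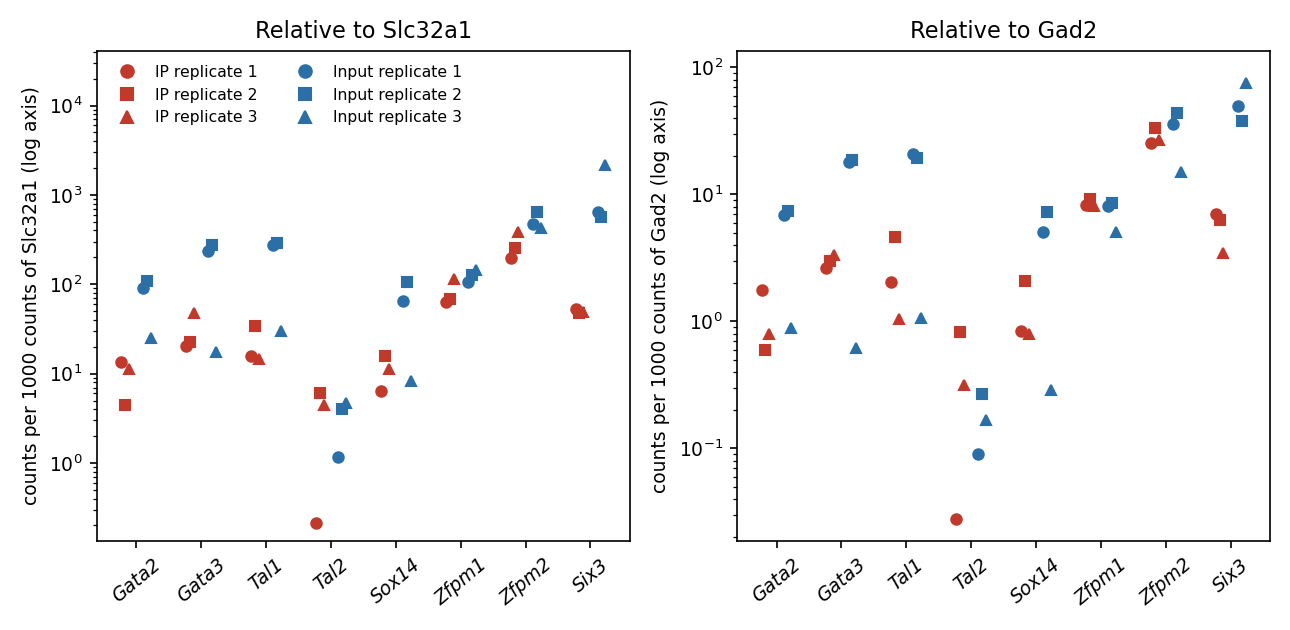
Counts of each factor per 1000 counts of Slc32a1 (left) and of Gad2 (right) in each library, on log axes, IP in red left of input in blue and a shape for each replicate number. Relative to Slc32a1, Gata3 and Tal1 reach 237 to 286 in input replicates 1 and 2 and at most 47.4 in IP, while Zfpm1 spans 63.2 to 143 over all libraries.

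The relatives of the factors in their gene families were mostly absent or lower in IP. Of the other GATA genes, Gata1 and Gata5 had no count in any library, Gata4 had none in IP and 2, 2 and 0 counts in input, and Gata6 had at most 3 counts, so 2 of 6 GATA genes were tested. Lyl1, the closest relative of Tal1 outside the nervous system, had 0, 1 and 0 counts in IP, against 19, 14 and 26 in the input replicates, and was called lower, having passed the filter through input alone. Nhlh2, a neuronal bHLH factor of the same family, went the other way, with 39.0, 49.0 and 39.6 CPM in IP, against 9.30, 8.11 and 9.80 CPM in input (log2 fold change 2.23, SE 0.15). Nhlh1 stood at 0.74 (SE 0.41, adjusted p 0.155). Of 4 tested genes of this bHLH family, 1 was higher, 2 lower and 1 did not pass, beside 26.0% higher and 27.9% lower among all genes.

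Of 4 SoxB genes tested, Sox1, Sox2 and Sox21 were lower and Sox14 did not pass, where 27.9% of all genes were lower. Sox1 and Sox2, factors of neural stem cells and glia, stood at -4.51 (SE 0.36) and -2.99 (SE 0.26), and Sox21, the other SoxB2 gene, at -3.23 (SE 0.42). In the input replicates in order, Sox1 had 29.3, 24.4 and 57.8 CPM and Sox2 had 12.5, 13.3 and 17.8 CPM. Both were highest in input replicate 3, as Six3 was. Sox21 had 1.84, 1.15 and 0.513 CPM in IP, against 11.9, 12.5 and 8.46 CPM in input, so unlike Sox14 it was not low in input replicate 3. Sox3 had at most 21 counts and was not tested. Of 3 genes of the Six3 family tested, Six3 and Six5 were lower and Six4 did not pass (log2 fold change 0.40, SE 0.20). Six5 had 0, 3 and 4 counts in IP, against 53, 57 and 51 in input, and passed the filter through input alone. Six6, the closest relative of Six3, had no count in IP and 20, 5 and 65 counts in the input replicates. Six2 had at most 21 counts in a library.

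Partners that hold GATA and TAL proteins together gave calls in both directions. Of 15 such genes, all tested, 3 were higher, 6 lower and 6 did not pass, with a median log2 fold change of -0.29. Among all genes 53.9% were called, 26.0% higher and 27.9% lower, so these shares are near the background. The 3 E-protein genes, whose products pair with TAL factors on DNA, were lower, with Tcf4 at 84.7, 101 and 62.2 CPM in IP against 227, 275 and 217 CPM in input (log2 fold change -1.54, SE 0.18). Tcf12 stood at -1.38 (SE 0.13) and Tcf3 at -0.78 (SE 0.17). Among the bridging proteins, Ldb1, which the blood complex uses, was higher by 0.44 (SE 0.12), while Ldb2 was lower by a log2 fold change of -0.89 (SE 0.11).

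LIM-only genes, whose products link TAL to GATA factors, split as well. Lmo2, the member known from the blood complex, had 16.9, 13.8 and 16.6 CPM in IP, against 11.9, 8.48 and 14.5 CPM in input, and did not pass (0.44, SE 0.21, adjusted p 0.108), but passed without input replicate 3 (0.61) and with the replicate block (0.47). Lmo3 was lower at -1.12 (SE 0.10), and Lmo1 and Lmo4 did not pass, at 0.51 (SE 0.27) and -0.29 (SE 0.15). The single-stranded DNA-binding proteins that stabilise LDB were higher for Ssbp2 (0.39, SE 0.11) and Ssbp4 (0.73, SE 0.19), and Ssbp3 stood at 0.22 (SE 0.12). Of the ETO corepressor genes, Runx1t1 was lower at -0.33 (SE 0.09), while Cbfa2t3 (-0.74, SE 0.28) and Cbfa2t2 (0.25, SE 0.10) did not pass. Cbfa2t3 passed with the replicate block (-0.66) and without input replicate 3 (-0.998). With upper-quartile scaling or library totals alone, only Ssbp4 of these 15 genes was called higher, and without input replicate 1 the count of higher genes was also 1.

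Genes of the progenitors from which midbrain GABA neurons arise gave 1 higher, 4 lower and 3 not passed among 8 tested, with a median of -0.59. The shares among all genes tested were 26.0% higher and 27.9% lower. Nkx6-1, a homeodomain factor of ventral progenitors and of some mature neurons, had 2.56, 0.415 and 1.28 CPM in IP, against 0.120, 0.229 and 0.0493 CPM in the input replicates (log2 fold change 3.38, SE 0.82, adjusted p 0.00819). With 5, 10 and 2 counts in the input replicates, Nkx6-1 passed the filter only because of IP, the group where it is high. Every IP library was above every input library, as for 30.7% of all genes tested. Its relative Nkx6-2, which myelinating cells use, was lower at -2.53 (SE 0.22). The Notch targets Hes5 (-1.76, SE 0.33) and Hes1 (-0.96, SE 0.30) were lower, although Hes1 did not pass without IP replicate 1 (-0.83), input replicate 1 (-0.99) or input replicate 2 (-0.76). Nkx2-2 (-0.34, SE 0.15), Insm1 (-0.19, SE 0.38) and the Notch ligand gene Dll1 (0.15, SE 0.23) did not pass. Insm1 stood at 0.09 without input replicate 3. Helt, the selector that acts before Gata2, had no count in 5 libraries and 5 counts in input replicate 3, and was not tested.

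The genes whose levels over the 6 libraries were most like each factor are given as a description, since the points share libraries and differ by group. For Gata3 the nearest were Tph2 (Pearson r = 0.993, log2 CPM), Tfap2d (r = 0.983) and Slc6a4 (r = 0.979). Tph2 and Slc6a4 encode the serotonin synthesis enzyme and the serotonin transporter, and Tfap2d encodes an AP-2 factor of the tectum. Tph2 had 1.67, 0.976 and 2.38 CPM in IP, against 12.6, 9.99 and 0.296 CPM in the input replicates. For Tal1 the nearest was Slc6a3, the dopamine transporter gene (r = 0.969), with 6.66, 4.96 and 2.87 CPM in IP, against 62.4, 52.3 and 4.98 CPM in input, followed by Kcnh5 (r = 0.955) and Nmd3 (r = 0.955). As for Gata3 and Tal1, each of these genes was lower in input replicate 3 than in the other inputs.

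For Six3 the nearest were Asxl2 (r = 0.998), Bcl11b, a zinc finger factor of striatal neurons (r = 0.998), and Necab1 (r = 0.997). Bcl11b had 12, 10.2 and 8.84 CPM in IP, against 56.3, 51.5 and 121 CPM in the input replicates, highest in input replicate 3 as Six3 was. For Zfpm2 the nearest were Tfap2d (r = 0.974), Pip4k2c (r = 0.974) and Ggnbp2 (r = 0.962). Gata2 was nearest to Col4a3bp (r = 0.975), Slc22a4 (r = 0.973) and Oma1 (r = 0.972), Sox14 to Ttc27 (r = 0.993), Wscd1 (r = 0.978) and Kirrel (r = 0.974), and Zfpm1 to Bcas3 (r = 0.997), Eef1g (r = 0.994) and Pls3 (r = 0.987). Several of these genes vary little between libraries, as Ttc27 does at 11.7 to 16.0 CPM.

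Markers of other cell types that use these factors were read as well, beside 26.0% higher and 27.9% lower among all genes tested. Of 9 serotonergic genes tested 4 were lower and 5 did not pass, with a median log2 fold change of -1.73, summing to 57.7 to 75.4 CPM in IP and 97.2 to 223 CPM in input, and none was at 0. Without input replicate 3, 6 were lower. The most abundant were Slc18a2, the vesicular monoamine transporter gene (-1.74, SE 0.45), the serotonin receptor gene Htr1a, which did not pass (-0.05, SE 0.19), and Ddc, of monoamine synthesis (-1.73, SE 0.27). The other lower genes over all 6 libraries were Maob and Slc22a3. Tph2 (-2.19, SE 0.96) and Slc6a4 (-2.13, SE 0.997), of serotonin synthesis and transport, did not pass, nor did Fev (-0.51, SE 0.88). Of 12 endothelial genes 10 were lower and 2 did not pass, summing to 5.06 to 6.06 CPM in IP and 18.6 to 25.7 CPM in input, with Sox17, Erg and Emcn at 0 in at least 1 IP library. The most abundant were Slco1a4 (-3.82, SE 0.31), Esam, which did not pass (0.40, SE 0.37), and Flt1 (-1.88, SE 0.40). Cldn5, Tek, Erg and Emcn, 4 of the 10 lower genes, passed the filter through input alone, the group where they are high. Cdh5 and Ly6c1, also lower, exceeded its level in the inputs and a single IP library, so they too passed only because of input. With a filter of 1 CPM in 3 libraries 6 endothelial genes were lower. In the input replicates in order, Cldn5 had 0.961, 1.17 and 0.247 CPM, Pecam1 had 2.74, 2.29 and 0.839 CPM, and Slco1a4 had 4.66, 4.81 and 4.81 CPM, so that some endothelial genes were low in input replicate 3 and others were not. Of 7 erythroid genes found in the table, 4 were tested and 3 were lower, summing to 5.44 to 7.25 CPM in IP and 20.8 to 35.1 CPM in input, with Slc4a1 at 0 in IP replicate 2. Alas2, 1 of these 3, likewise passed the filter only because of input. Of 11 mast cell and megakaryocyte genes 6 were tested, 1 was higher and 3 were lower, of which Pf4 and Ppbp passed the filter through input alone, and with a filter of 1 CPM in 3 libraries 1 was lower. Cma1, Tpsb2, Mcpt4 and Gp9 had no count in IP, although Kit, which neurons also express, brought the sum to 29.8 to 110 CPM in IP and 24.7 to 50.3 CPM in input. All 8 oligodendrocyte genes and 7 of 8 astrocyte genes were lower, with medians of -3.50 and -3.11. The part of these cells in the lower levels of Gata2, Tal1 and Six3 was not tested.

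Six3 and its relatives were also set beside forebrain and hypothalamic genes, where again 26.0% of all genes were higher and 27.9% lower. Of 10 striatal genes 6 were lower and 4 did not pass, with a median log2 fold change of -1.94. The count lower was 2 without input replicate 3 and ranged over 0 to 8 in the alternatives tried, being 0 with the replicate block. The most abundant were Pde10a (-1.79, SE 0.65), Foxp1 (-1.22, SE 0.35) and Ppp1r1b (-3.63, SE 1.12), the gene of DARPP-32, and Ppp1r1b had 6.62, 20.3 and 4.85 CPM in IP, against 55.1, 21.7 and 316 CPM in the input replicates. Of 9 forebrain GABA factors tested 3 were lower and 6 did not pass. Of 8 hypothalamic genes tested 2 were higher, 3 lower and 3 did not pass. The 2 higher were Nkx2-1 (log2 fold change 3.16, SE 0.59) and Otp (3.48, SE 0.52). Oxt, 1 of the lower, passed the filter through input alone, and Avp, also lower, through the inputs and a single IP library. Among cortical and thalamic genes 9 of 10 were lower. The cerebellar list had 2 higher, 0 lower and 6 not passed. IP replicate 2, the library high in Purkinje cell genes, also had the highest Tal1, Tal2 and Sox14 of the IP libraries and the lowest Gata2, Gata3 and Zfpm1. The part of cerebellar or striatal RNA in these values was not tested.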

How the data were processed

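RNA sequencing libraries from 3 IP and 3 input samples were compared. The authors deposited raw counts of reads for each gene symbol. The submitters' processing notes name STAR 2.0.0e, HTSeq and the mm10 build. Annotation, strandedness and overlap mode: not given in the sources used here. Summary lines and the entry for unknown genes (at most 1.09e-06% of a library) were left out. Positions and exon lengths are from GENCODE M21 (GRCm38), matched by symbol.

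Low counts were removed with filterByExpr (minimum count 10, minimum total 15), and the remaining genes went, after TMM scaling, into a two-sided quasi-likelihood test on group (edgeR 4.0.16, R 4.3.3), with glmTreat for changes over 2-fold. A threshold of 0.05 was used. SE is the log2 fold change divided by the root of F, and 95% intervals use the same SE. A floor of 3 counts equals 0.0687 to 0.0740 CPM and covers counting error only. The procedure was tested on simulated data, and the outcome is not reported here.

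All 8 factors and the members of the families, complex partners, progenitor genes and GABA genes were named, except a few that are not reported here but are in the counts; for the other lists, counts, summed levels and members at 0, with the 3 most abundant members of the serotonergic, endothelial and striatal lists. The 3 genes most like each factor had an average log2 CPM of at least 2. The members and lists were chosen with earlier results of these data known. Values of Bcl11b, Tph2, Slc6a3 and Ttc27 were picked from the likeness results after their values were known. Some members named from the midbrain, hypothalamic and serotonergic lists were likewise picked after their values were known. By the labels, IP and input libraries with 1 number shared a sequencing lane, and their deviations from group means correlated at 0.155, 0.0744 and 0.0506. IP and input libraries with different numbers correlated lower, at -0.107 to 0.0207. The main test did not use this pairing, which entered only as the replicate block. Replicates within a group correlated at 0.971 to 0.985 across genes, with chi-square per degree of freedom of 27.1 to 84.6, so none was a copy. Alternatives were other scalings, filters, DESeq2 1.42.0, limma-voom (limma 3.58.1), a replicate block, protein-coding genes only and leaving out libraries.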

Additional observations from a re-analysis of the deposited data

How the results depend on the processing

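Six3 was lower in IP under all 16 alternatives, with log2 fold changes of -3.85 to -2.93. Gata2, Gata3, Tal1, Sox14 and Zfpm2 were below 0 under all 16, and their calls varied. With limma-voom, Gata2 (-2.06) and Tal1 (-1.99) did not pass, and Tal1 (-2.51) did not pass without a low-count filter. Sox14 passed with DESeq2 (-1.83), and without IP replicate 2 and input replicate 3 together Gata3 (-2.45) and Sox14 (-2.73) passed. Leaving out each library in turn gave -2.79 to -1.88 for Gata2, -2.57 to -1.60 for Gata3, -3.05 to -2.06 for Tal1, -2.35 to -1.2 for Sox14 and -0.46 to -0.0091 for Zfpm2, the lowest of Gata3, Tal1, Sox14 and Zfpm2 without input replicate 3. Zfpm1 turned to -0.022 with library totals alone and to -0.034 with upper-quartile scaling. Gad2 ranged over -0.27 to 0.037 with 1 library left out, turned at 0.037 without input replicate 3, and turned to 0.16 without IP replicate 2 as well, where Gad1 turned to 0.044. The causes of these changes were not tested. The replicate block changed no call of the 7 factors, with Gata2 at -2.03, Gata3 at -1.49, Tal1 at -2.07 and Six3 at -3.41. The counts of all genes higher (3429 to 4811) and lower (3810 to 5567) stayed within 1.5 times the reported ones. Upper-quartile scaling gave 3429 higher and 5567 lower, against 4467 and 4794, and moved the median of all genes to -0.17. The 3 log2 ratios kept their sign under every alternative tried for them. Tal2, at 1 to 22 counts, is limited by depth, and 3 samples a group with 1 apart limit the rest.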
